A study of Homo sapiens with 43 samples.

Results

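The 10 genes described here belong to the signalling route from the lipopolysaccharide receptor to NF-kB and were followed in HMC3, an established human cell line distributed as microglia, under glucocorticoid exposure and after its removal. The members are named genes with a set role in this route: the receptor TLR4, the NF-kB subunits NFKB1, NFKB2, RELA and RELB, the inhibitors NFKBIA and TNFAIP3, and the target genes BIRC3, CXCL8 and PTX3. They are 10 of the 20052 genes in the count table, and all 10 passed the filter on low counts that left 16816 genes for testing. Cells of 1 line at passage 8 were seeded in flasks and kept for 3 days with dexamethasone at 1 or 0.01 µM, hydrocortisone at 10 or 0.01 µM, the ethanol vehicle of each of these 4 treatments, or untreated medium. RNA was taken on day 3, at the end of exposure, and on day 6, after 3 days in normal growth medium without hormone. Each of the 9 day 3 groups and each of the 4 day 6 hormone groups had 3 libraries, and each of the 4 vehicles had 1 library on day 6, which makes 43 libraries in 17 groups. A day 6 flask was seeded with cells of a day 3 flask, and, taking the number in the titles as the flask, 16 flasks gave a library on both days. No library was stimulated with lipopolysaccharide, and untreated medium has no day 6 library here.

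TLR4 is the cell surface receptor that recognises bacterial lipopolysaccharide and, through adaptors and kinases, leads to activation of the IkB kinases. These mark NFKBIA, the protein that holds NF-kB dimers in the cytoplasm, for destruction, and the freed dimers enter the nucleus and start transcription of inflammatory genes and of their own inhibitors. Glucocorticoids act through a nuclear receptor, are widely used against inflammation, and are known to raise NFKBIA transcription in several cell types. Dexamethasone is a synthetic glucocorticoid that differs from hydrocortisone, the natural hormone cortisol, by an added fluorine atom, an added methyl group and a further double bond.

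Depth ran from 7638840 to 24426643 counts per library. Ribosomal RNA genes took 9.9% to 94.9% of the counts (median 29.3%), and 7 libraries, in 7 groups, were above 75%. As a check of the labels, FKBP5 and TSC22D3, both standard glucocorticoid target genes, rose with dexamethasone 1 µM on day 3 by 1.44 and 3.99 on the log2 scale (edgeR's quasi-likelihood test, adjusted p = 8.07e-11 and 1.9e-12). Against the labelled cell type, 5 of 16 microglia and macrophage markers were in the table, and 2 had a median above 1 count per megaread (CPM) when ribosomal RNA genes were left out of the total, MERTK at 9.04 among them. CSF1R, TREM2 and CD68 stood at medians of 0.273, 0.248 and 0.112. Of 12 fibroblast and pericyte markers 10 were in the table and 8 were above 1 CPM, with COL1A1 at 1678. The cells are therefore called HMC3 and not microglia below.

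In the 12 vehicle libraries of day 3, levels per length of transcript put the activating subunit RELA first and the receptor last. The scale is CPM of the library scaled by the trimmed mean of M-values (TMM), divided by the kilobases of exons. RELA stood at a mean of 6.62, NFKBIA at 3.93, PTX3 at 3.85, NFKB2 at 2.25 and NFKB1 at 1.82. TNFAIP3 followed at 0.561, CXCL8 at 0.543, RELB at 0.291, BIRC3 at 0.261 and TLR4 at 0.19. Ranges of neighbours in this order overlapped except between RELA and NFKBIA and between NFKB1 and TNFAIP3. With dexamethasone 1 µM the mean of NFKBIA was 11.1 CPM per kb against 7.15 for RELA, so the order of inhibitor and subunit was the reverse of that in the vehicle libraries. In the following text a level is CPM of the TMM-scaled library, not divided by length, and is compared only within a gene.

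**Figure D1:**
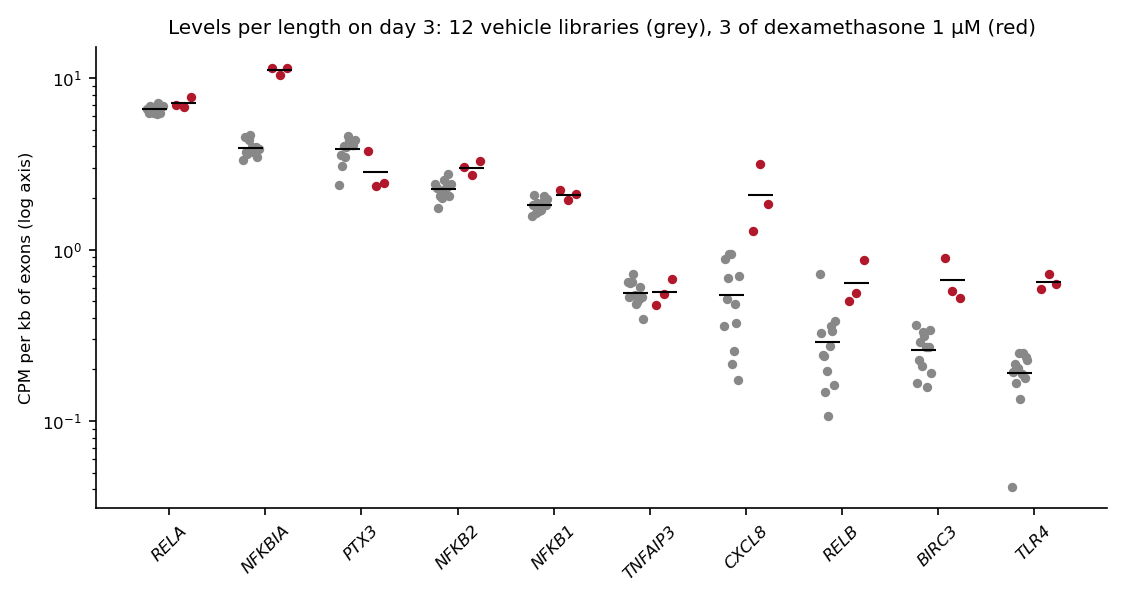
Level of each gene per kilobase of exons (CPM per kb, log axis) in the 12 vehicle libraries of day 3 (grey) and the 3 libraries of dexamethasone 1 µM on day 3 (red), one point a library, with the mean as a bar. RELA leads in the vehicle libraries at a mean of 6.62 and NFKBIA leads with the hormone at 11.1, and TLR4, BIRC3 and RELB are the lowest in vehicle.

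NF-kB binds short motifs known as kB sites, and the sequence before the start of the members was searched for them. Most members were chosen as subunits, inhibitors or targets of NF-kB, a status that can rest on such sites. Matches are therefore a description and no independent support. RefSeq promoters on GRCh38.p14 were found for 9 of the 10 genes (13 starts) and the 250 bases before each start were searched on both strands; RELB had no entry. The 10-letter NF-kB consensus was found in 6 genes, against 5.21% of all 35116 promoters of the same length, and the shorter form GGANTTTCC, which can overlap it, in 5 genes, against 1.45%. Together 7 genes had 1 of these forms: NFKB1, NFKB2, NFKBIA, TNFAIP3, BIRC3, CXCL8 and PTX3. In TNFAIP3 and NFKB2 every match lies inside the gene of GENCODE v29 and not before it. TLR4 and RELA had neither in these windows. For TLR4 only 22 of the 250 bases searched lie before the gene of GENCODE v29, and the rest lie inside it. The AP-1 motif TGANTCA was found in CXCL8 alone, against 6.57% of promoters, and the glucocorticoid receptor half-site pair ACANNNTGT in no member, against 4.61%. The counts are of genes, some with more than 1 start searched, and the shares are of single promoters, so the units differ. A match is a run of letters and not a measured binding site. The stretches before 3 genes that rose with the hormones and 1 that fell follow, 5′ to 3′ on the strand of the gene, up to the base before the gene of GENCODE v29, with matches of either NF-kB form in capitals. NFKBIA lies at chr14:35404750-35404999 on the minus strand, BIRC3 at chr11:102317234-102317449, CXCL8 at chr4:73740319-73740505 and PTX3 at chr3:157436600-157436788, all on the plus strand.
NFKBIA: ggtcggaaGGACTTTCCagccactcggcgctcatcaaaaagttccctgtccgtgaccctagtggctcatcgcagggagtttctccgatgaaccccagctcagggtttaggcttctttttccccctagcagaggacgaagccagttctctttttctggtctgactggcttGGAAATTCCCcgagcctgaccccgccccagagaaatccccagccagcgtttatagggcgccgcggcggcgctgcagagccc
BIRC3: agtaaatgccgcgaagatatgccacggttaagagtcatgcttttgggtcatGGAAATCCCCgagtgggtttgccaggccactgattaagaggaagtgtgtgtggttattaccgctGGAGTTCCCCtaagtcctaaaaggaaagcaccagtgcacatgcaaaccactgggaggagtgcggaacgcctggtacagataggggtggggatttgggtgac
CXCL8: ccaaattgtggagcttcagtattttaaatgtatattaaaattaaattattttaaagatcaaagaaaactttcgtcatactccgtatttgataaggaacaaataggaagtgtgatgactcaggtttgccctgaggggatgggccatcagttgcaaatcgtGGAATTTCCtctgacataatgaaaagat
PTX3: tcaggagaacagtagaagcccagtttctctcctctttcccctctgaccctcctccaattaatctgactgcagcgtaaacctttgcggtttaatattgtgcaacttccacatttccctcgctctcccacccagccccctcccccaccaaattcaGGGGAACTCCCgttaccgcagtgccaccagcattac
NFKBIA carried matches from position −242 and from −81, counted back from its RefSeq start. BIRC3 carried matches from −199 and −135, and CXCL8 from −91, with the AP-1 letters from −137. In PTX3 a pair of overlapping matches on opposite strands began at −97 and −96. An NF-kB form was thus found before the gene that fell and before the 3 rising genes printed here. TLR4, which also rose, had none in its window, but that window lies mostly inside its GENCODE v29 gene. The sequence before that gene was therefore barely searched.

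**Figure D2:**
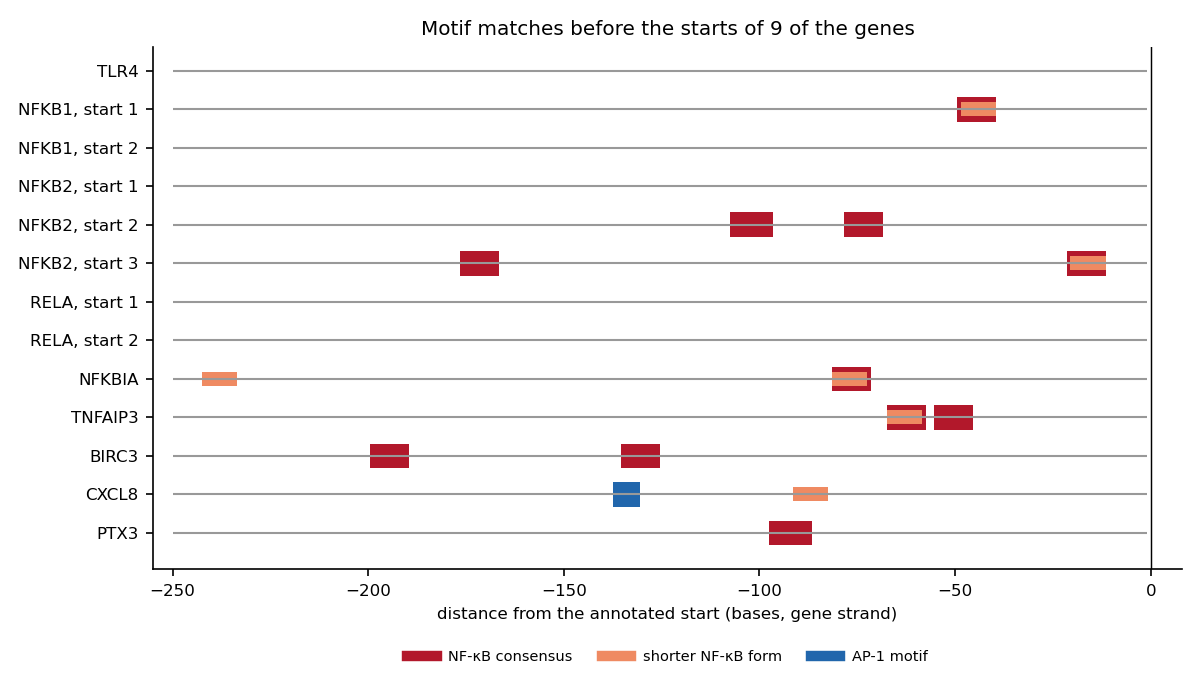
Positions of motif matches in the 250 bases before each RefSeq start (horizontal axis, bases from the start on the gene strand), 1 line a start, for the 9 genes with an entry. Dark red marks the NF-kB consensus, orange its shorter form and blue the AP-1 motif. TLR4 and RELA hold none, and for TLR4 only 22 of the 250 bases lie before its GENCODE v29 gene. The matches of TNFAIP3 and NFKB2 lie inside their GENCODE v29 genes.

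At the end of exposure, 3 of the 4 hormone treatments raised the receptor TLR4, the inhibitor NFKBIA and the targets BIRC3 and CXCL8, and RELA, the main activating subunit, did not pass in any. In dexamethasone 0.01 µM CXCL8 missed the threshold in 8 of 15 refits and BIRC3 in 5. In hydrocortisone 10 µM CXCL8 missed it in 7 of 15. With dexamethasone 1 µM 6 of the 10 members passed the test against its vehicle, 5 higher and 1 lower, against 10.4% higher and 12.3% lower of all genes tested. For dexamethasone 0.01 µM 4 were higher and 1 lower, against 6.15% and 7.84% of all genes. With hydrocortisone 10 µM 4 were higher and none lower, against 5.58% and 7.5%. The median log2 change of the members was 0.84, 0.43 and 0.28 in these comparisons, and that of all genes lay between 0.00 and 0.02. Members were chosen with earlier results of these data known. Their shares beside those of all genes, here and below, are therefore a description and no independent support. With hydrocortisone 0.01 µM none of the members and 0% of all genes passed edgeR's quasi-likelihood test, with 1 member and 398 genes at an unadjusted p below 0.05, and DESeq2 called 0 genes. Levels are measured in whole cultures, where fewer expressing cells and less RNA per cell cannot be told apart.

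**Figure D3:**
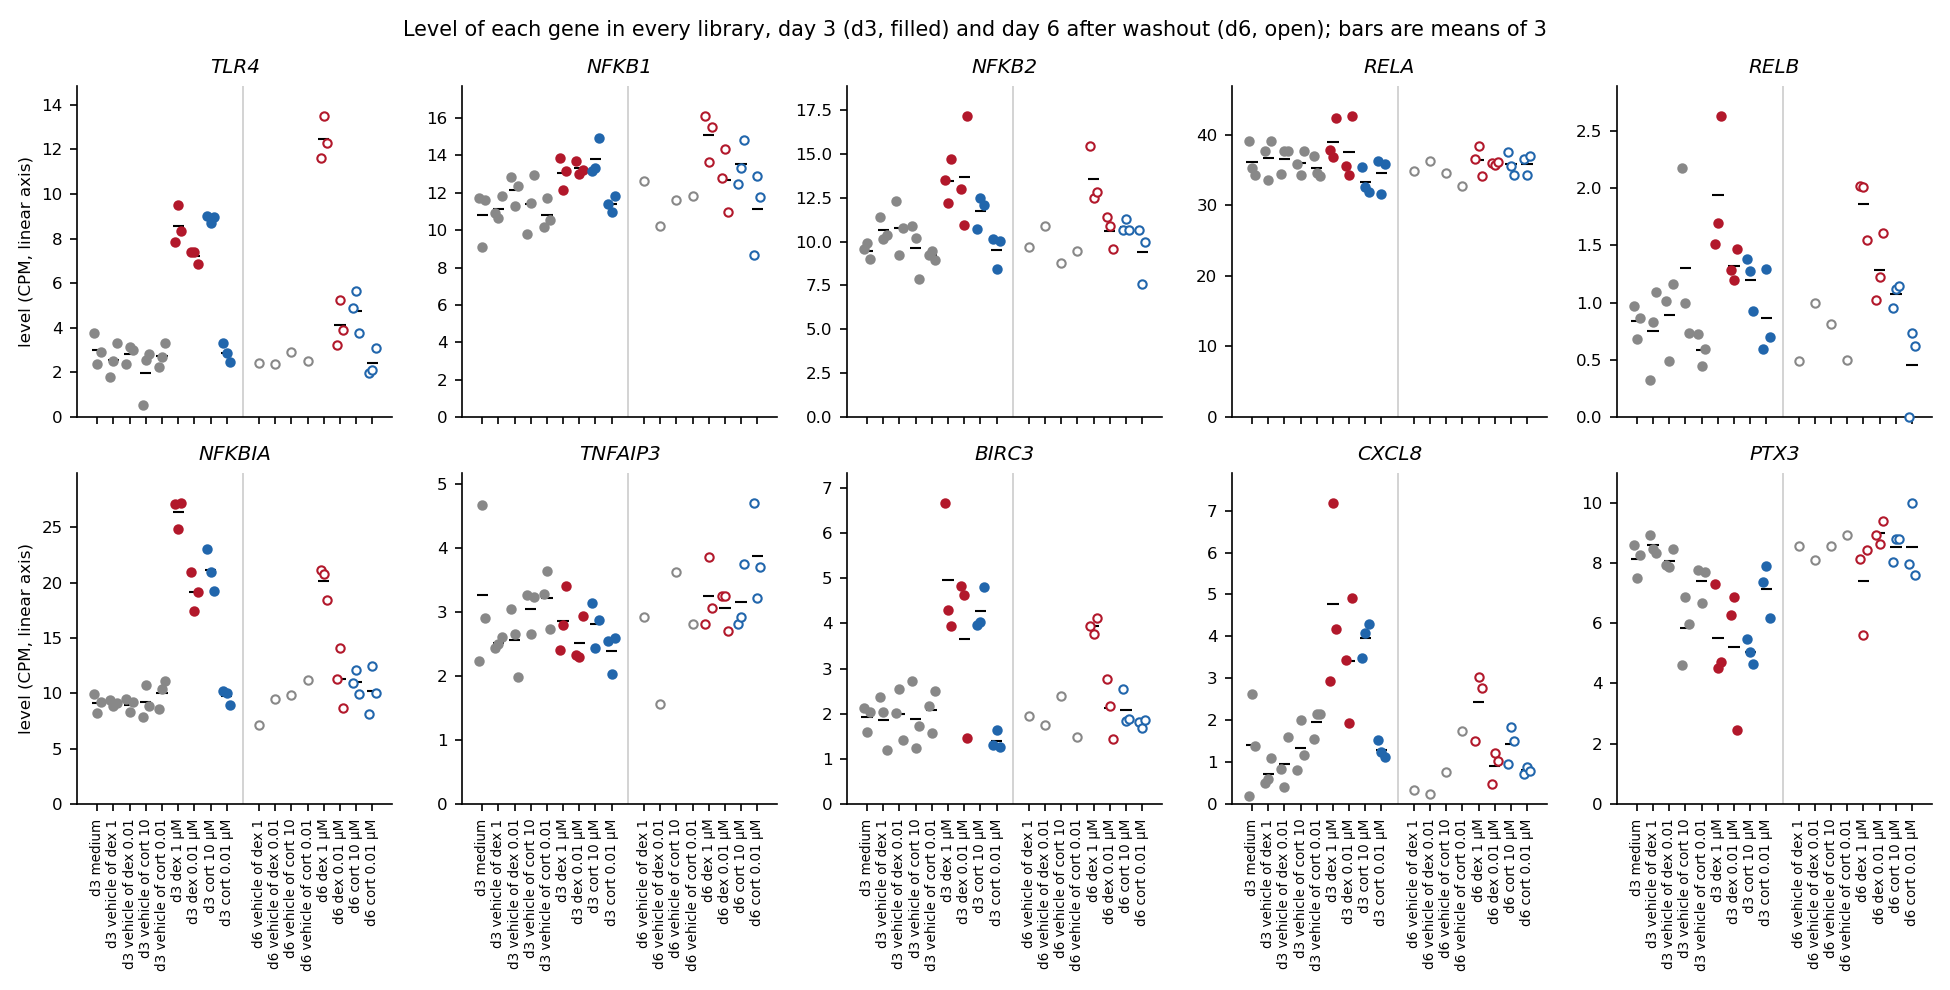
Level of the 10 genes in each of the 43 libraries (CPM of the TMM-scaled library, linear axis from 0), by group, with day 3 as filled and day 6 as open points, hormones in red (dex, dexamethasone) and blue (cort, hydrocortisone), vehicles and medium in grey, doses in µM and the mean of 3 as a bar. TLR4 and NFKBIA stand above every vehicle library in 3 hormone groups of day 3 and in dexamethasone 1 µM of day 6, and RELA lies between 31.6 and 42.7 throughout.

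The lipopolysaccharide receptor rose in the same 3 treatments of day 3. TLR4 (ENSG00000136869) lies at chr9:117704175-117724730 on the plus strand (GRCh38, GENCODE v29). It stood at 7.83, 9.52 and 8.33 CPM with dexamethasone 1 µM and at 1.79, 2.50 and 3.32 in its vehicle. At 0.01 µM of dexamethasone it stood at 7.40, 7.39 and 6.86 against 2.36, 3.15 and 3.02, and with hydrocortisone 10 µM at 9.03, 8.70 and 8.96 against 0.543, 2.57 and 2.84. Every library of these 3 hormone groups was above every vehicle library, while the 3 libraries of hydrocortisone 0.01 µM (3.31, 2.88 and 2.45) overlapped theirs (2.22, 2.69 and 3.32). The rises were 3.36-fold (log2 1.75, SE 0.29, adjusted p = 1.86e-05), 2.53-fold (log2 1.34, SE 0.29, adjusted p = 0.00114) and 4.29-fold (log2 2.10, SE 0.29, adjusted p = 2.12e-06) in edgeR's test, in the order given. The lowest vehicle value, 0.543 CPM in the vehicle of hydrocortisone 10 µM, rests on 2 counts in a library with 91.4% ribosomal RNA. When only the 6 libraries of that comparison were fitted, TLR4 missed the threshold (adjusted p = 0.0504).

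The inhibitor NFKBIA, whose protein retains NF-kB in the cytoplasm, had the smallest SE of the rising members on day 3. The gene (ENSG00000100906) lies at chr14:35401511-35404749 on the minus strand. It stood at 27.1, 24.8 and 27.2 CPM with dexamethasone 1 µM and at 9.36, 8.84 and 9.16 in its vehicle. At the lower dose of dexamethasone the values were 21, 17.4 and 19.1 against 9.45, 8.26 and 9.19, and with hydrocortisone 10 µM 23.1, 21 and 19.3 against 7.88, 10.8 and 8.82. None of these groups overlapped its vehicle. The log2 changes were 1.53 (SE 0.14, adjusted p = 3.33e-12), 1.10 (SE 0.14, adjusted p = 3.99e-08) and 1.20 (SE 0.14, adjusted p = 3.79e-09) in edgeR's test. Hydrocortisone 0.01 µM left it at 10.2, 10.0 and 8.98 against 8.62, 10.4 and 11.1 CPM (log2 −0.04, 95% interval −0.31 to 0.23). TNFAIP3, a ubiquitin-editing enzyme that shuts off NF-kB signalling, (ENSG00000118503, chr6:137867188-137883312, plus strand) did not pass in any of the 4 comparisons, with log2 changes from −0.43 to 0.18. Its vehicle libraries of day 3 ran from 1.98 to 3.64 CPM and its 12 hormone libraries from 2.03 to 3.40.

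Of the 4 NF-kB subunits RELB passed on day 3 against the treatment's own vehicle, in 1 of the 4 comparisons. RELA (ENSG00000173039, chr11:65653596-65663094, minus strand), which carries the transactivation domain of the commonest dimer, changed by 0.09, 0.03, −0.11 and −0.03 on the log2 scale with dexamethasone 1 and 0.01 µM and hydrocortisone 10 and 0.01 µM, and the 95% intervals of these 4 comparisons lay within −0.27 and 0.25. NFKB1 and NFKB2, precursors of the DNA-binding partners, had log2 changes of 0.23 and 0.34 with dexamethasone 1 µM, of 0.13 and 0.34 with dexamethasone 0.01 µM and of 0.28 and 0.29 with hydrocortisone 10 µM, with adjusted p from 0.0615 to 0.542. NFKB1 lies at chr4:102501329-102617302 and NFKB2 at chr10:102394110-102402529, both on the plus strand. With dexamethasone 1 µM NFKB2 passed with ribosomal RNA genes removed (adjusted p = 0.0425), with the replicate block (0.0362), with only its 6 libraries (0.0261), against all vehicles (0.00128) and against medium (0.00435). It also passed there without replicate 3 of the hormone group (adjusted p = 0.0487). With dexamethasone 0.01 µM NFKB2 passed against all vehicles and against medium (edgeR adjusted p = 0.0014 and 0.0049). In that comparison it also passed without replicate 2 of the hormone group (adjusted p = 0.0186). With hydrocortisone 10 µM NFKB1 passed against the same 2 controls (edgeR adjusted p = 0.0204 and 0.032) and without replicate 3 of its vehicle (0.0491). RELB, a partner in the non-canonical branch and the member with the fewest counts (ENSG00000104856, chr19:45001430-45038198, plus strand), stood at 1.51, 1.69 and 2.63 CPM (17, 37 and 24 counts) with dexamethasone 1 µM and at 0.325, 0.834 and 1.09 (4, 20 and 23 counts) in its vehicle. The 2 groups did not overlap and the rise was 1.34 on the log2 scale (SE 0.46, edgeR adjusted p = 0.0282). It was lost without replicate 4 of the hormone group (adjusted p = 0.144) and without replicate 1 or 2 of the vehicle (0.164 and 0.0655), and against untreated medium in place of vehicle (0.0588).

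BIRC3, an inhibitor of apoptosis proteins family ligase that NF-kB induces and that acts in its signalling complexes, also rose in these 3 treatments. The gene (ENSG00000023445) lies at chr11:102317450-102339403 on the plus strand. It stood at 6.67, 4.30 and 3.95 CPM with dexamethasone 1 µM against 2.36, 2.04 and 1.19 in vehicle, and at 3.97, 4.02 and 4.81 with hydrocortisone 10 µM against 2.72, 1.24 and 1.72. The groups were apart in both, with log2 changes of 1.42 (SE 0.29, edgeR adjusted p = 0.000228) and 1.21 (SE 0.29, edgeR adjusted p = 0.00319). For dexamethasone 0.01 µM the values were 4.83, 4.63 and 1.47 against 2.02, 2.56 and 1.42, so 1 hormone library lay inside the vehicle range. That library, replicate 3, held 3 BIRC3 counts and 94.9% ribosomal RNA. The log2 change was 0.93 (SE 0.29, edgeR adjusted p = 0.0252) and was lost without replicate 1 or 2 of the hormone group (adjusted p = 0.148 and 0.122) or replicate 1 or 3 of the vehicle (0.0674 and 0.15), and when only its 6 libraries were fitted (0.273).

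CXCL8, a chemokine that draws neutrophils and a classic NF-kB and AP-1 target, had the largest fitted change of the 10 genes with dexamethasone and the widest error. The gene (ENSG00000169429) lies at chr4:73740506-73743716 on the plus strand. It stood at 2.94, 7.18 and 4.17 CPM with dexamethasone 1 µM and at 0.488, 0.584 and 1.09 in vehicle (6, 14 and 23 counts), a rise of 2.71 on the log2 scale (SE 0.54, edgeR adjusted p = 0.000348). At 0.01 µM of dexamethasone the values were 3.44, 1.93 and 4.90 against 0.844, 0.393 and 1.60, and with hydrocortisone 10 µM 3.49, 4.08 and 4.28 against 0.815, 1.99 and 1.18. The groups did not overlap in these 3 comparisons, and the vehicle of hydrocortisone 0.01 µM (1.56, 2.15 and 2.14) stood above its hormone group (1.52, 1.24 and 1.12). The 2 weaker rises were 1.76 (SE 0.54, edgeR adjusted p = 0.0255) and 1.53 (SE 0.52, adjusted p = 0.05, on the threshold and below it before rounding). The value of 4.90 rests on 10 counts in the library with 94.9% ribosomal RNA. The first was lost without replicate 1 or 3 of the hormone group (adjusted p = 0.0554 and 0.114) or replicate 1 or 2 of the vehicle (0.0908 and 0.121), and also with ribosomal RNA genes removed (log2 1.29, adjusted p = 0.105). It was also lost without libraries above 75% ribosomal RNA (0.21), with only its 6 libraries (0.0762) and against medium (0.115). The second was lost without any 1 of the 3 hormone libraries (adjusted p from 0.0658 to 0.12) or without replicate 1 or 3 of the vehicle (0.187 and 0.131). It was also lost without libraries above 75% ribosomal RNA (0.133) and with no low-count filter (0.0626).

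PTX3, a soluble pattern recognition protein released in inflammation, was the 1 member that fell. The gene (ENSG00000163661) lies at chr3:157436789-157443628 on the plus strand. It stood at 7.29, 4.53 and 4.71 CPM with dexamethasone 1 µM and at 8.95, 8.47 and 8.35 in vehicle, a fall of 0.64 on the log2 scale (log2 −0.64, SE 0.19, edgeR adjusted p = 0.0137). At the lower dose it stood at 6.29, 6.87 and 2.45 against 7.93, 7.87 and 8.46 (log2 −0.60, SE 0.20, edgeR adjusted p = 0.0336). Neither pair of groups overlapped, and the value of 2.45 rests on 5 counts in the library with 94.9% ribosomal RNA. Without replicate 3 or 4 of dexamethasone 1 µM the first fall was lost (adjusted p = 0.0941 and 0.0893), and without replicate 3 of dexamethasone 0.01 µM or any 1 of its 3 vehicle libraries the second (0.293, and 0.0589 to 0.0891). With ribosomal RNA genes removed the second fall also missed the threshold (log2 −0.39, adjusted p = 0.136), and so it did with DESeq2 (0.174). With hydrocortisone 10 µM PTX3 was 5.48, 5.05 and 4.64 CPM against 4.62, 6.89 and 5.98 in its own vehicle (log2 −0.21, adjusted p = 0.551). Set against all 4 vehicle groups of day 3 the same libraries had a log2 change of −0.55 (edgeR adjusted p = 0.0086), and this vehicle had the lowest mean PTX3 of the 4.

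**Figure D4:**
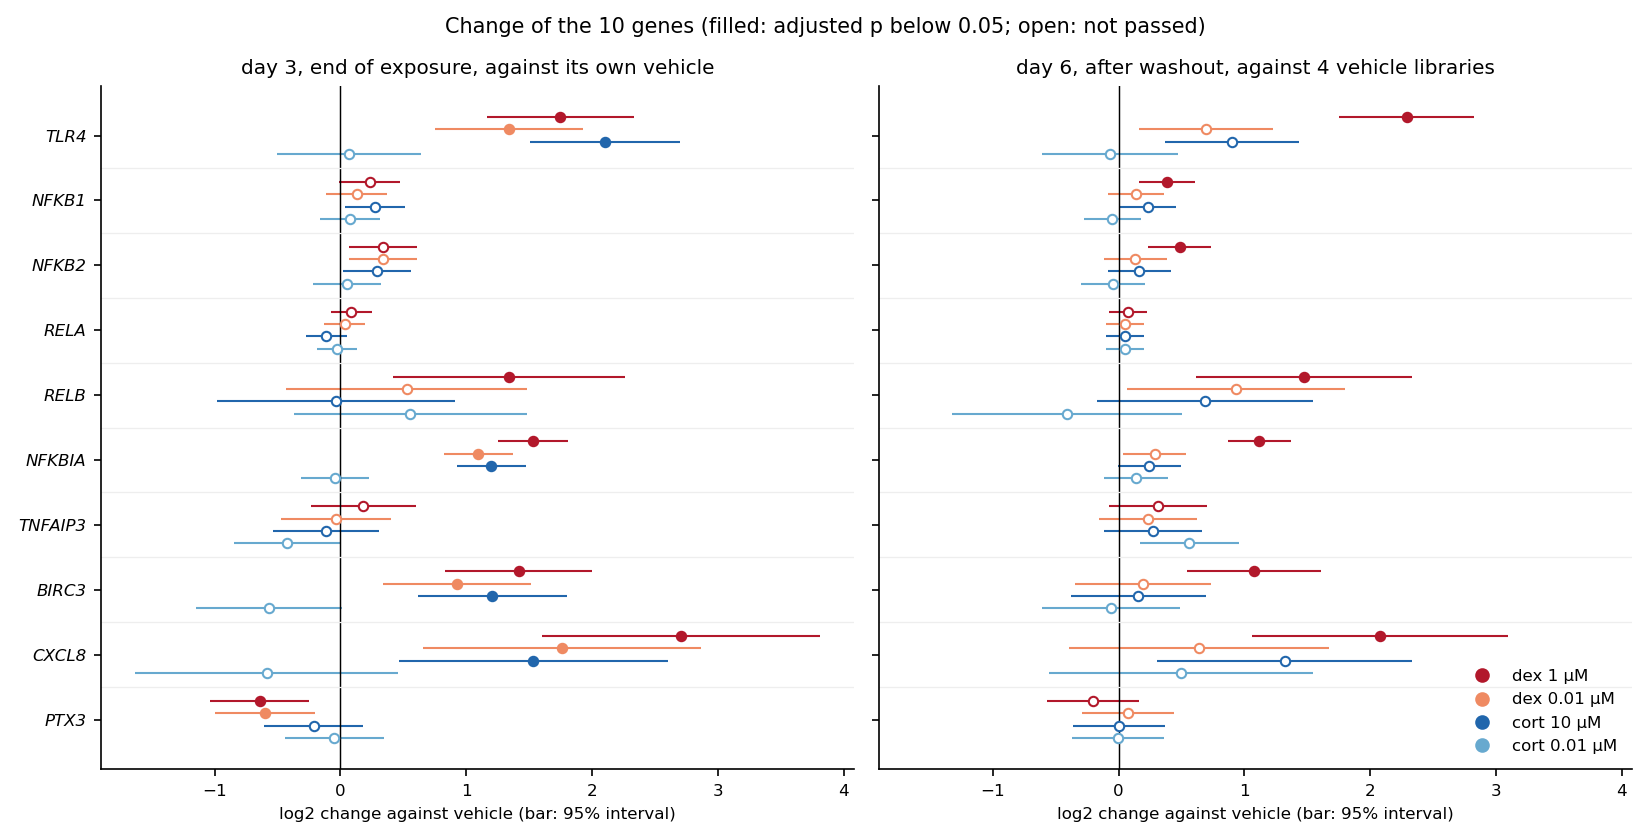
Fitted log2 change of each gene against vehicle (horizontal axis, with its 95% interval) on day 3 (left) and on day 6 (right), for dexamethasone (dex) and hydrocortisone (cort) at 2 doses each. Filled points passed an adjusted p of 0.05 in edgeR; on day 3 TLR4, NFKBIA, BIRC3 and CXCL8 are filled in 3 treatments, on day 6 only dexamethasone 1 µM has filled points, 7 of 10.

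The dose of dexamethasone made no difference that passed, and that of hydrocortisone did. Between 1 and 0.01 µM dexamethasone, each corrected for its vehicle, 0 members passed edgeR's test (1 at an unadjusted p below 0.05, and 0 with DESeq2), against 0.0178% of all genes higher and 0.0297% lower. For NFKBIA the difference was 0.44 with a 95% interval of 0.05 to 0.82, and for TLR4 0.41 with an interval of −0.40 to 1.22. Between 10 and 0.01 µM hydrocortisone 3 members passed, all higher at the upper dose, against 1.73% of all genes higher and 2.36% lower. These were TLR4 by 2.03 (SE 0.40, adjusted p = 0.00118), NFKBIA by 1.24 (SE 0.19, adjusted p = 1.04e-05) and BIRC3 by 1.77 (SE 0.41, adjusted p = 0.00501) in edgeR's test. The 2 pairs of doses span different ranges and were not compared with each other.

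The hormones share 1 dose, 0.01 µM, and there dexamethasone and hydrocortisone differed in NFKBIA and BIRC3. The difference of the vehicle-corrected changes was 1.14 for NFKBIA (SE 0.19, edgeR adjusted p = 5.43e-05) and 1.49 for BIRC3 (SE 0.41, edgeR adjusted p = 0.0222), both higher with dexamethasone, against 2.07% of all genes higher and 2.91% lower. For TLR4 (1.27, 95% interval 0.45 to 2.09, adjusted p = 0.0606) and CXCL8 (2.35, 95% interval 0.83 to 3.87, adjusted p = 0.0639) the test was missed, and the intervals do not show that the hormones act alike. With DESeq2 both passed (adjusted p = 0.0066 and 0.0476). CXCL8 passed in edgeR without replicate 2 of dexamethasone (adjusted p = 0.0391) or replicate 3 of its vehicle (0.0224). RELA differed by 0.06 with an interval of −0.17 to 0.29. BIRC3 was lost in 6 of 12 fits without 1 library: replicate 2 of hydrocortisone (adjusted p = 0.0622), replicates 1 and 4 of its vehicle (0.0522 and 0.0659), replicates 1 and 2 of dexamethasone (0.0817 and 0.0665) and replicate 3 of its vehicle (0.0828).

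After 3 days without hormone, members passed against vehicle in 1 of the 4 treatments, dexamethasone 1 µM. The 4 comparisons share the 4 vehicle libraries of day 6. For dexamethasone 1 µM 7 of 10 passed, all higher, against 5.13% of all genes higher and 5.03% lower. TLR4 stood at 11.6, 13.5 and 12.3 CPM against 2.43, 2.37, 2.90 and 2.51 in the vehicles, a 4.89-fold rise (log2 2.29, SE 0.26, edgeR adjusted p = 9.78e-08). NFKBIA stood at 21.1, 20.8 and 18.4 against 7.12, 9.44, 9.83 and 11.2 (log2 1.12, SE 0.12, edgeR adjusted p = 4.98e-09). The lowest hormone library was above the highest vehicle library for both genes. BIRC3 (3.94, 3.77 and 4.11 CPM against 1.48 to 2.39) rose by 1.08 (SE 0.26, adjusted p = 0.00451), without overlap. CXCL8 (1.50, 3.02 and 2.78 against 0.237 to 1.75) rose by 2.08 (SE 0.50, adjusted p = 0.00524), with 1 hormone library inside the vehicle range. The vehicle value of 1.75 came from the flask of hydrocortisone 0.01 µM vehicle, and the lowest 2 values rest on 5 and 2 counts.

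On day 6 the rises of 3 of the 4 subunits passed as well. NFKB1 stood at 16.1, 13.7 and 15.5 CPM against 10.2 to 12.6 (log2 0.39, SE 0.11, edgeR adjusted p = 0.017), and NFKB2 at 15.4, 12.5 and 12.8 against 8.76 to 10.9 (log2 0.49, SE 0.12, edgeR adjusted p = 0.00618). RELB was 2.02, 2.01 and 1.55 against 0.485 to 0.996 (log2 1.47, SE 0.42, edgeR adjusted p = 0.0176). The libraries of these 3 genes did not overlap between groups. The share of all genes without such overlap was not computed for any comparison. NFKB1 was lost without replicate 2 or 4 of the hormone group (adjusted p = 0.11 and 0.0668) or the dexamethasone 0.01 µM vehicle library (0.0697), and NFKB2 without replicate 2 of the hormone group (0.0936). RELB was lost without replicate 2 or 3 of the hormone group (0.0696 and 0.0549) or without the vehicle library of hydrocortisone 0.01 µM (0.0712) or dexamethasone 1 µM (0.0586). RELA (log2 0.07), TNFAIP3 (0.31) and PTX3 (−0.20) did not pass.

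With the other 3 treatments no member passed on day 6. For dexamethasone 0.01 µM all-gene shares were 0.0476% higher and 0.0357% lower, for hydrocortisone 10 µM 0.422% and 0.47%, and for hydrocortisone 0.01 µM 0.0892% and 0%. Unadjusted p was below 0.05 for 3, 3 and 1 members, and DESeq2 called 0, 1 and 0. The 1 call was TLR4 after hydrocortisone 10 µM, at 4.87, 5.67 and 3.75 CPM, above the 4 vehicle libraries (log2 0.90, SE 0.26, edgeR adjusted p = 0.0951, DESeq2 adjusted p = 0.00268). After dexamethasone 0.01 µM TLR4 stood at 3.24, 5.26 and 3.89 CPM (log2 0.70, 95% interval 0.16 to 1.23, edgeR adjusted p = 0.497).

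A direct comparison of the 2 dexamethasone doses on day 6 was added after these values were seen. TLR4 was higher after 1 µM than after 0.01 µM by 1.59 (SE 0.29, edgeR adjusted p = 0.000384) and NFKBIA by 0.83 (SE 0.13, edgeR adjusted p = 3.71e-05), with no overlap of the libraries, against 1.38% of all genes higher and 1.75% lower. The remaining 8 members did not pass, BIRC3 (0.88, adjusted p = 0.0897) and CXCL8 (1.44, adjusted p = 0.176) among them. BIRC3 passed with DESeq2 (adjusted p = 0.036), with ribosomal RNA genes removed (0.015), without the libraries above 75% ribosomal RNA (0.019), with the replicate block (0.0121) and with only the 6 libraries compared (0.0209), and CXCL8 in the last of these (0.0268).

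The change over washout, day 6 effect minus day 3 effect with each taken against all vehicle groups of its day, passed for NFKBIA in 2 treatments. It was −0.75 after dexamethasone 0.01 µM (SE 0.16, edgeR adjusted p = 0.00171), against 4.01% of all genes higher and 2.54% lower. After hydrocortisone 10 µM it was −0.93 (SE 0.16, edgeR adjusted p = 8.35e-05), against 4.31% and 2.66%, and 1 member passed. In that treatment same-numbered flasks of the 2 days deviated together, and with a replicate block by flask 2 members passed, NFKBIA and BIRC3 (log2 −1.23, adjusted p = 0.0117). For dexamethasone 0.01 µM BIRC3 passed as well without replicate 3 of its day 3 group (−1.09, adjusted p = 0.0334). Without replicate 1 of the hydrocortisone 10 µM vehicle on day 3, the library with 91.4% ribosomal RNA, TLR4 (−0.81, adjusted p = 0.0275) and BIRC3 (−1.06, adjusted p = 0.0442) passed for hydrocortisone 10 µM. After dexamethasone 1 µM 0 members passed edgeR's test, 1 at an unadjusted p below 0.05 and 0 with DESeq2, against 1.11% and 0.571% of all genes. The change there was 0.54 for TLR4 (95% interval −0.16 to 1.24) and −0.38 for NFKBIA (−0.71 to −0.06, adjusted p = 0.309).

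Vehicles did not differ from medium, nor between days, by an amount that passed for any member. Against untreated medium on day 3, 0 of 10 members and 0% of all genes passed edgeR's test, 0 members and 903 genes were at an unadjusted p below 0.05, and DESeq2 called 0 genes. The largest member difference was −0.25 for TLR4 (95% interval −0.70 to 0.20). Between the vehicles of day 6 and day 3, 0 members passed, 1 was at an unadjusted p below 0.05 and DESeq2 called 0, against 0.22% of all genes higher and 0.285% lower. CXCL8 had the largest difference there, −1.03 (95% interval −1.87 to −0.20, adjusted p = 0.334).

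Across the 17 group means of log2 level, the members that rose varied together, as a description over groups that share libraries, depth and hormones between genes. These members were picked for rising in the same groups, so a high r between them is no independent support. Pearson's r of TLR4 was 0.91 with NFKBIA, 0.89 with BIRC3, 0.85 with NFKB2, 0.84 with NFKB1 and 0.72 with CXCL8, and it was −0.53 with PTX3 and 0.09 with TNFAIP3. Among 11765 genes of sufficient level, those most like TLR4 in this measure included SLC7A2 (0.96) and AOX1 (0.95). For NFKBIA they were TIPARP (0.98), ENSG00000285417, listed without a symbol (0.97), and ABCB1 (0.97), and for CXCL8 they were SERPINB6, SNAI2 and ZC3HAV1, each at 0.91.

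Of 72 other tested genes of the pathway, 18 rose and 4 fell with dexamethasone 1 µM on day 3, with a median log2 change of 0.25, beside 10.4% and 12.3% of all genes. At dexamethasone 0.01 µM 6 rose and 3 fell, beside 6.15% and 7.84% of all genes, and with hydrocortisone 10 µM 8 rose and 5 fell, beside 5.58% and 7.5%. The share of the 72 that fell was below that of all genes with dexamethasone 1 and 0.01 µM and near it with hydrocortisone 10 µM. The 6 that rose with dexamethasone 0.01 µM were a share near that of all genes. This list too was chosen with earlier results of these data known, so its shares are no independent support. With hydrocortisone 0.01 µM 0 passed (5 at an unadjusted p below 0.05). By role, 7 of 22 further NF-kB targets, 6 of 17 inhibitors, 3 of 21 receptors and adaptors, 1 of 11 kinases and the subunit REL rose with dexamethasone 1 µM, and 2 receptors or adaptors and 2 inhibitors fell. Among targets, the survival protein BCL2L1 stood at 169 ± 13.8 CPM (SD, n = 3) against 101 ± 13.4 (log2 0.74, edgeR adjusted p = 3.63e-10), and the cytokine IL32 at 3.36 ± 0.0586 against 0.819 ± 0.363 (log2 2.01, edgeR adjusted p = 2.55e-06). GADD45B, a stress-induced regulator of MAP kinase signalling, rose by 0.99 (adjusted p = 1.25e-05), and TNFRSF1A, the main receptor for tumour necrosis factor, by 0.49 (adjusted p = 6.69e-06). Among the inhibitors ZFP36 (1.39), ZC3H12A (0.93) and TNIP1 (0.31) rose and the deubiquitinase CYLD fell (−0.41); these 4 were chosen as examples after their values were seen.

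IRAK1, a kinase that carries the signal from TLR4, was lower on day 3 in the 3 treatments in which TLR4 was higher. It stood at 61.1 ± 4.78 CPM (SD, n = 3) with dexamethasone 1 µM against 74.9 ± 3.57 in vehicle, a log2 change of −0.30 (edgeR adjusted p = 0.00504). IRAK1 fell by 0.39 with dexamethasone 0.01 µM (adjusted p = 0.000349) and by 0.48 with hydrocortisone 10 µM (adjusted p = 1.53e-05). CYLD fell by 0.53 with dexamethasone 0.01 µM (adjusted p = 4.86e-05). Of the targets, BCL2L1 rose with dexamethasone 0.01 µM by 0.55 (adjusted p = 6.99e-07) and IL32 by 1.64 (adjusted p = 0.000214), and with hydrocortisone 10 µM BCL2L1 rose by 0.60, TNFRSF1A by 0.47 and GADD45B by 0.68.

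IL1B, an inflammatory cytokine and NF-kB target, was near the limit of detection, with 154 counts over all 43 libraries. Its counts were 0, 0 and 0 with dexamethasone 0.01 µM against 2, 2 and 10 in vehicle, 1, 1 and 0 with dexamethasone 1 µM against 1, 3 and 7, and 1, 1 and 0 with hydrocortisone 10 µM against 0, 2 and 6. The 9 libraries of these 3 hormone groups held at most 1 count each, and with dexamethasone 0.01 µM they did not overlap the vehicle. IL1B passed as lower with dexamethasone 0.01 µM (edgeR adjusted p = 0.00106) and hydrocortisone 10 µM (0.0475), and not with dexamethasone 1 µM (0.133). On day 6 the counts after hydrocortisone 0.01 µM were 2, 12 and 17 against 0, 2, 1 and 2 in the vehicles (edgeR adjusted p = 0.0351), and it was the 1 pathway gene of 72 that passed there. Mean levels were 0.608 CPM against 0.0831 in these vehicles. On day 3 the vehicle of the same treatment stood at 0.349 CPM and medium at 0.374, so the vehicle level of day 6 was the lower one. Fitted values at such counts depend on the prior count, so the counts themselves are the measurement to read for this gene.

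After washout of dexamethasone 1 µM 12 of the 72 pathway genes were higher and 1 lower than in the vehicles of day 6, beside 5.13% and 5.03% of all genes. CSF1, the growth factor of macrophages, stood at 4.35 ± 0.779 CPM (SD, n = 3) against 1.94 ± 0.429 (SD, n = 4) (log2 1.19, edgeR adjusted p = 7.82e-05). IL32 rose by 1.35 (adjusted p = 0.000626), BCL2L1 by 0.33 (adjusted p = 0.00148) and TNFRSF1A by 0.34 (adjusted p = 0.00161). IRAK1 stood at 78.6 ± 4.06 CPM (SD, n = 3) against 74.5 ± 6.73 (SD, n = 4) in the vehicles. After dexamethasone 0.01 µM and hydrocortisone 10 µM 0 of the 72 passed on day 6 (edgeR's test; 5 and 8 at an unadjusted p below 0.05).

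**Figure D5:**
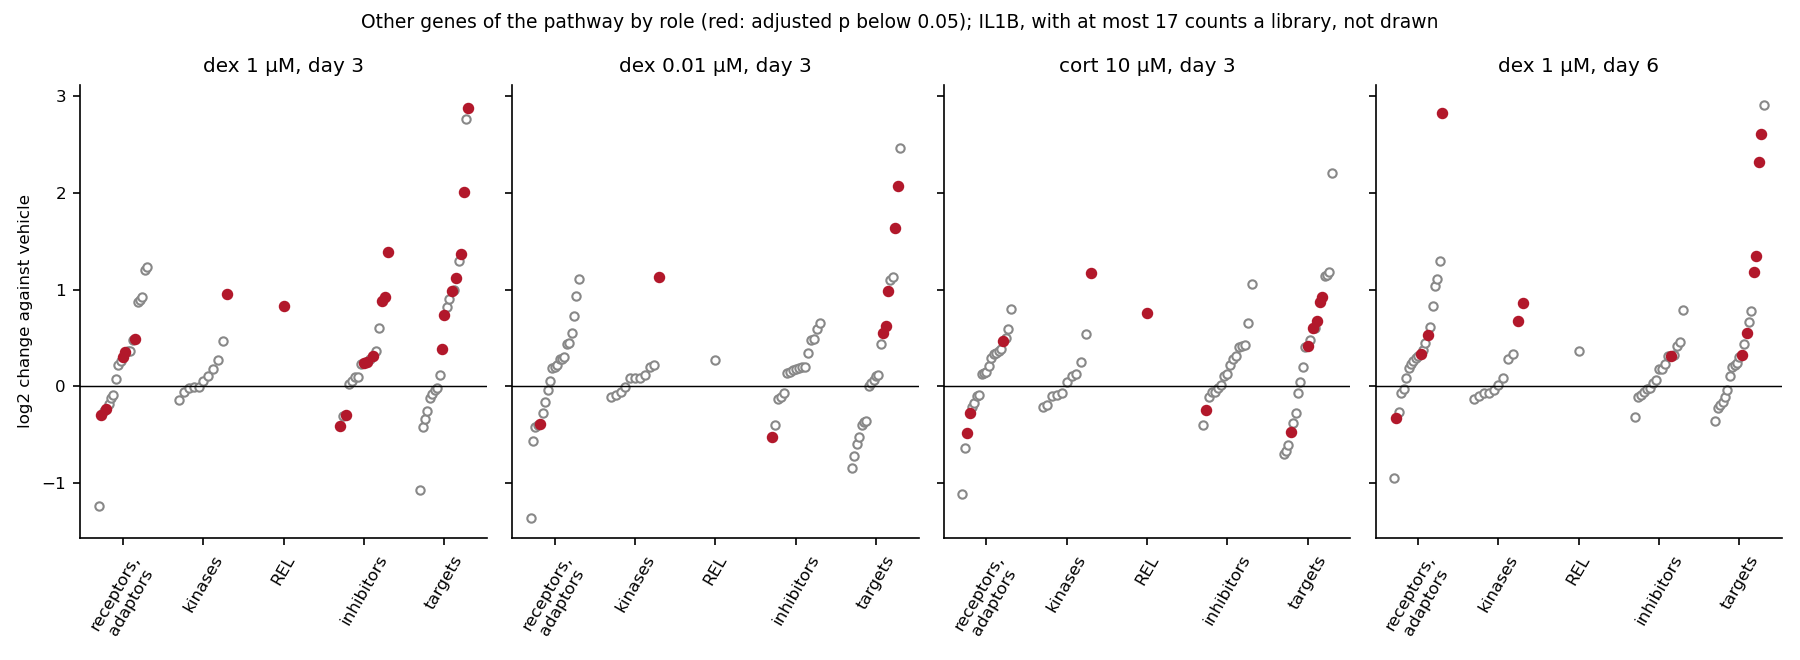
Fitted log2 change against vehicle of 71 further pathway genes (vertical axis) by role (horizontal axis; 1 point a gene, ordered within a role by its change) in the 4 comparisons with most calls, dex for dexamethasone and cort for hydrocortisone. Red points passed an adjusted p of 0.05 in edgeR; 18 of 22 red points of dexamethasone 1 µM on day 3 lie above 0, and IL1B is left out for its low counts.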

How the data were processed

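The authors deposited 1 table of whole-number counts, with Ensembl genes in lines and 43 libraries in columns, not normalised. Library pairs within a group differed by more than counting noise, so each was counted once. Total RNA libraries were made with a stranded kit and read as paired ends, per the labels' protocols. The submitters' processing notes name FastQC, STAR, Subread, featureCounts and GRCh38; neither versions nor the strand setting are given in these sources. Antisense genes overlap exons of TNFAIP3 (AL357060.1, 77 counts in all), RELA (AP001362.2, 268) and PTX3 (VEPH1, 74), and AL160272.2 overlaps TLR4 on its own strand, so such reads cannot be told apart. A table of names gave symbols for 19978 genes, and GENCODE v29 gave 70 more.

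Testing used the quasi-likelihood method of edgeR 4.0.16 under R 4.3.3, with TMM scaling, genes kept by a minimum count of 10 and total of 15, 1 coefficient for each of 17 groups (26 residual degrees of freedom) and Benjamini-Hochberg adjustment over 16816 genes at 0.05, in 17 comparisons, 1 of them added after seeing the data. The script was tested on simulated data. Single day 6 vehicle libraries are assumed to vary like the others, and flasks are separate cultures of 1 line, so p-values measure the spread between flasks. Days are paired through the flasks, which the labels say were seeded anew from day 3 cells; deviations of same-numbered flasks correlated between days above 0.1 for all 3 flasks only in hydrocortisone 10 µM. Ribosomal RNA genes (8) stayed in library sizes. Alternatives were DESeq2 1.42.0, RLE size factors, no low-count filter, removal of ribosomal RNA genes, leaving out libraries above 75% ribosomal RNA, other controls, only the libraries compared, a replicate block by number or by flask, and leaving out each library. Named are all 10 members, FKBP5 and TSC22D3, up to 4 further pathway genes per comparison with the smallest p among those that passed, and the 3 genes most like each of TLR4, NFKBIA and CXCL8; some items that these rules or the marker lists name are not reported here. Members and lists were chosen with earlier results of these data known, so their directions are no independent support.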

Additional observations from a re-analysis of the deposited data

Results flagged for a closer look

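Effects that differed between doses, hormones or days by a test of the difference itself (edgeR) are collected here as log2 differences. Between the hydrocortisone doses on day 3 they were 2.03 for TLR4, 1.24 for NFKBIA, 1.77 for BIRC3, 0.65 for BCL2L1, 0.59 for TNFRSF1A, −0.55 for IRAK1 and 0.73 for IRAK4. Between dexamethasone and hydrocortisone at 0.01 µM they were 1.14 for NFKBIA, 1.49 for BIRC3, 0.59 for BCL2L1, −0.64 for CYLD, −0.46 for IRAK1 and −5.18 for IL1B.

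The effect of dexamethasone 1 µM changed over washout by 0.44 for IRAK1 and by −0.37 for BCL2L1. That of dexamethasone 0.01 µM changed by −0.75 for NFKBIA, −0.55 for BCL2L1, 0.53 for IRAK1, 0.37 for CYLD and 6.81 for IL1B. That of hydrocortisone 10 µM changed by −0.93 for NFKBIA, −0.59 for BCL2L1, 0.68 for IRAK1, −0.97 for CSF1 and 4.93 for IL1B. On day 6 the dexamethasone doses differed by 1.59 for TLR4, 0.83 for NFKBIA, 0.42 for BCL2L1 and 0.80 for CSF1. The values of IL1B rest on groups at or near 0 counts, depend on the prior count and are no bounds. BCL2L1 also differed between the vehicles of the 2 days (log2 0.24, SE 0.05, edgeR adjusted p = 0.0195).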

How the results depend on the processing

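Of 3213 changes of single members refitted, 3110 kept their side of the threshold, 51 lost and 52 gained a call and 0 called changes turned sign, and of 322 counts of members 28 moved by over 1.5 times. With dexamethasone 0.01 µM on day 3, 5 members passed, 3 after ribosomal RNA genes were removed, 3 without libraries above 75% ribosomal RNA and 2 when only its libraries were fitted. For dexamethasone against hydrocortisone at 0.01 µM DESeq2 called 4 members in place of 2. For hydrocortisone 10 µM on day 6, 1 member (TLR4) in place of 0 passed without ribosomal RNA genes, without libraries above 75%, with only its libraries and with DESeq2. The washout change of dexamethasone 0.01 µM passed for 2 in place of 1 without libraries above 75%. That of hydrocortisone 10 µM passed for 4 in place of 1 without ribosomal RNA genes, without libraries above 75% and with DESeq2, and for 2 with only its libraries. The day 6 dose comparison of dexamethasone, added after seeing the data, gave 4 in place of 2 with only its libraries. The cause of these moves was not tested.

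Leaving out 1 library in turn gave 4 to 6 members for dexamethasone 1 µM, 2 to 5 for dexamethasone 0.01 µM, 3 to 4 for hydrocortisone 10 µM and 1 to 2 for the hormones at 0.01 µM, all on day 3. It gave 4 to 7 for dexamethasone 1 µM on day 6, and 1 to 2 and 1 to 3 for the washout change of dexamethasone 0.01 µM and hydrocortisone 10 µM. With a replicate block by number, 2 members in place of 1 passed for the washout change of hydrocortisone 10 µM, and 2 with a block by flask. The block by number also lost BIRC3 (adjusted p = 0.0539) and gained TLR4 (0.024) and CXCL8 (0.00199) for the hormones at 0.01 µM, and gained NFKB2 with dexamethasone 1 µM on day 3 (0.0362), CXCL8 between the hydrocortisone doses (0.0213) and BIRC3 between the dexamethasone doses on day 6 (0.0121). Flasks pair the 2 days by design, and the main test of the washout change did not use this pairing. Correlations of deviations between days were 0.17 to 0.23 for hydrocortisone 10 µM and 0.07 to 0.18 for hydrocortisone 0.01 µM. For dexamethasone they were −0.05 to 0.20 at 0.01 µM and −0.20 to −0.04 at 1 µM. Between hormone and vehicle of the same number on day 3 they ran from −0.22 to 0.13.

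Counts of all genes called varied more: 2353 with dexamethasone 0.01 µM on day 3 against 713 with only its libraries and 3633 against all vehicles, 2199 with hydrocortisone 10 µM against 4066 when set against all 4 vehicle groups, 838 between the hormones at 0.01 µM against 431 with only their libraries, 150 for hydrocortisone 10 µM on day 6 against 306 with only the libraries compared, and 85 between vehicle days against 37 without libraries above 75%. Of the small counts, the dexamethasone dose difference had 8 and ranged from 1 to 15, dexamethasone 0.01 µM on day 6 had 14 and went down to 4, hydrocortisone 0.01 µM had 15 on day 6 (8 to 25) and 0 on day 3 (3 against all vehicles). Depth limits TLR4, BIRC3, CXCL8, RELB and IL1B, each with single libraries at 3 counts or fewer. Levels in CPM without ribosomal RNA genes were higher. That scale divides by the total without these genes and also leaves out TMM scaling. TLR4 stood at 5.78 on it against 3.11 in the library with 9.9% ribosomal RNA. In the library with 94.9% it stood at 12.9 against 6.86. Of 204 level values 202 were classed as moved. That class holds shifts of 1 SD or more and all values of groups of 1 library, which have no SD.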
